A study of Mus musculus with 30 samples.

Results

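Transcripts of 10 amino acid transporter genes were measured in the left ventricle of mice that carried hRXFP1, the human receptor for the hormone relaxin, as a transgene and of mice that did not. The genes were a list of mouse symbols (Slc7a5, Slc3a2, Slc7a11, Slc7a1, Slc7a3, Slc7a6, Slc38a2, Slc1a4, Slc1a5 and Slc6a9) matched to the Entrez gene IDs of the count files, and the rule used no measured value. All 10 were among the 24467 genes listed, and 9 of the 10 had enough counts to be tested, as had 13588 genes in all. Each of the 30 samples was 1 library of left ventricular heart muscle, sequenced as strand-specific mRNA. The TG TAC group held 10 hRXFP1tg hearts after 8 weeks of TAC (transverse aortic constriction), in which a band on the aortic arch raises the pressure that the ventricle must eject against. The TG Sham group held 5 hRXFP1tg hearts after a Sham operation. The NTG TAC group held 10 hearts without the transgene, labelled NTG or Wildtype, after the same 8 weeks of TAC, and the NTG Sham group held 5 such hearts after a Sham operation. The title of the study places the overexpression in cardiomyocytes, and the promoter, the number of lines, the age and the strain of the mice are not given in the sources used here.

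Amino acid transporters set which amino acids a cell can take up, exchange or give back. Many of them are exchangers, which bring 1 amino acid in only as another leaves, so a cell depends on partners that load the exchanged substrate against its gradient. The heterodimeric transporters consist of a light chain that carries the amino acid and a heavy chain, the Slc3a2 product CD98hc, that brings the light chain to the plasma membrane. In heart muscle these proteins supply leucine, which feeds mTORC1 signalling, and glutamine, glycine and cysteine, which enter energy metabolism and glutathione. Several of the genes are known targets of the transcription factor ATF4, which cells use when amino acids run short.

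The libraries held 9231678 to 13093351 counts, so that 3 counts stood for 0.229 to 0.325 counts per 1000000 counts of the library (CPM), a limit that covers counting error only. Levels below are CPM scaled by the TMM method, and fold changes are on the log2 scale with their standard errors. A gene is said to have risen or fallen where edgeR's quasi-likelihood test gave a Benjamini-Hochberg adjusted p under 0.05 over all 13588 genes. The labels do not say that replicates came from separate animals, so p-values measure only the spread between these samples. The tissue is a mixture, so fewer cells of a type and less RNA per cell cannot be told apart. Cardiomyocyte markers (Myh6, Tnnt2, Actc1, Ryr2 and Tnni3) summed to 30987 to 61554 CPM per library, and atrial markers to 1.10 to 7.73 CPM. Sample names in the deposited files also carry a number that the labels leave unexplained. It is 100 or more for 1 of 10 TG TAC libraries, for all 5 TG Sham libraries, for 3 of 10 NTG TAC libraries and for 4 of 5 NTG Sham libraries.

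In Sham hearts, 2 of the 9 tested transporters rose with the transgene, Slc7a5 and Slc1a4, and 0 fell. The background was 99 genes, or 0.729% of those tested, with 0.596% called higher and 0.132% lower. After TAC, 3 of the 9 were higher in TG than in NTG hearts, Slc7a5, Slc6a9 and Slc7a1, against a background of 11.4% of genes called, with 4.57% higher and 6.86% lower. TAC in NTG hearts raised Slc7a5 and Slc1a4 and lowered Slc7a1, against a background of 17.6%, with 9.46% higher and 8.13% lower. TAC in TG hearts gave 0 calls among the 9, with 1 at an unadjusted p under 0.05. The edgeR background there was 1.43% of genes called and 14.5% at an unadjusted p under 0.05. DESeq2 also called 0 of the 9, and 380 of the 13588 genes in all. Limma voom called 2 of the 9, Slc7a5 and Slc6a9, and 1305 of the 13588 genes. The interaction, which asks whether TAC acted differently in the 2 genotypes, gave 0 calls among the members and 0 (0%) among all genes, with 3 of the 9 members and 8.12% of all genes at an unadjusted p under 0.05. In the interaction DESeq2 called 1 of the 9 members and 5 of the 13588 genes, and limma voom 0 of both. These comparisons share groups, each group entering a comparison of genotype and a comparison of surgery, so their values for a gene are not independent.

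**Figure D1:**
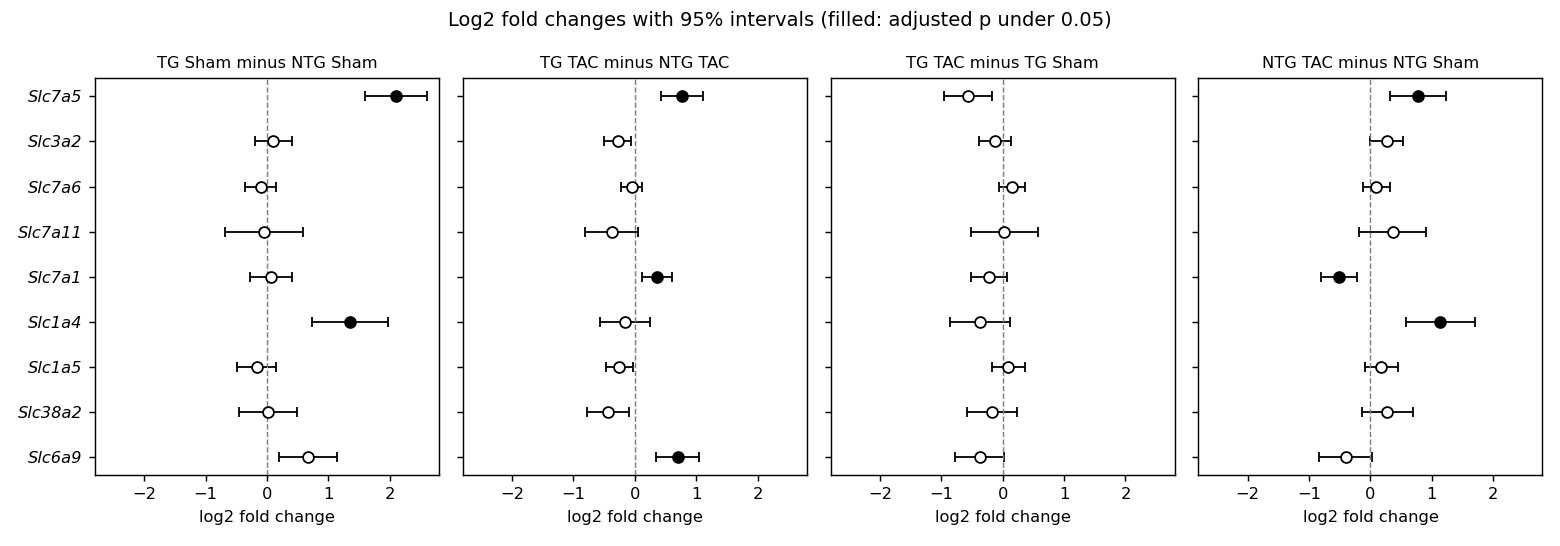
Log2 fold changes of the 9 tested transporters (horizontal axis, points) with 95% intervals (lines) in the 4 comparisons, filled where the adjusted p was under 0.05. Slc7a5 has filled points in 3 comparisons, at 2.10, 0.76 and 0.77, and an open point at -0.56 for TG TAC minus TG Sham.

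The median log2 fold change over the 9 members was 0.069 for TG Sham against NTG Sham hearts and -0.16 for TG TAC against NTG TAC hearts. It was -0.17 for TG TAC against TG Sham and 0.26 for NTG TAC against NTG Sham hearts, while the median over all genes lay between -0.0069 and 0.0017 in these 4 comparisons. The members did not move as a block: their fold changes ran from -0.17 to 2.10 for TG Sham against NTG Sham hearts and from -0.51 to 1.14 for NTG TAC against NTG Sham hearts. Beside these values, 0 of 33 tested cell type marker genes were called by edgeR, DESeq2 or limma voom between TG Sham and NTG Sham hearts, with 3 at an unadjusted edgeR p under 0.05. Macrophage markers summed to 129 to 185 CPM in TG Sham (median 175) and 112 to 152 CPM in NTG Sham hearts (median 120). There 0 of the 5 macrophage markers had an unadjusted edgeR p under 0.05. Between NTG TAC and NTG Sham hearts, 3 of 5 cardiomyocyte markers fell, and their summed level was 30987 to 57609 CPM in NTG TAC against 56014 to 61554 CPM in NTG Sham hearts. In the same comparison 2 of 5 fibroblast markers rose, with a summed level of 927 to 2427 CPM in NTG TAC against 859 to 1145 CPM in NTG Sham hearts. Of 5 macrophage markers 1 rose and all 5 had an unadjusted edgeR p under 0.05. The highest sum of the list was 385 CPM in NTG TAC against 152 CPM in NTG Sham hearts. In that comparison 1 mural marker rose and 2 of 5 fell, 2 of 3 tested Schwann cell markers fell, and the lymphocyte marker Cd8a fell, the lymphocyte sum being 63.4 CPM in NTG Sham replicate 5. Between TG TAC and NTG TAC hearts 1 cardiomyocyte and 1 mural marker were higher and 1 fibroblast marker lower. Between TG TAC and TG Sham hearts 0 of the 33 markers were called by edgeR, with 4 at an unadjusted p under 0.05. There DESeq2 called 1 and limma voom 3, where they called 380 and 1305 of all genes. No marker was at 0 in every library, and the part of cell makeup in the transporter results was not tested.

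Compared as CPM per kilobase of exon, Slc38a2 was the most abundant member in each group and Slc7a3 the least. The length was that of the merged exons of all annotated transcripts of a gene. It can exceed that of the transcripts present, so places and ratios between genes are approximate. In NTG Sham hearts the levels per kilobase were 26.4 for Slc38a2, 14.2 for Slc3a2, 10.5 for Slc1a5, 6.36 for Slc7a1, 3.58 for Slc7a6 and 2.54 for Slc7a5. Below these came Slc1a4 at 0.712, Slc6a9 at 0.465, Slc7a11 at 0.108 and Slc7a3 at 0.0547 CPM per kilobase. Neighbours whose ranges over the 5 NTG Sham hearts overlapped were Slc7a6 and Slc7a5, Slc1a4 and Slc6a9, and Slc7a11 and Slc7a3. In TG Sham hearts Slc7a5 took the third place, at 10.9 ± 2.47 CPM per kilobase (SD, n = 5), with a range that overlapped both Slc3a2 above it and Slc1a5 below it. In TG TAC hearts it took the fourth place, at 7.36 ± 1.55 CPM per kilobase, and in NTG TAC hearts the fifth, at 4.30 ± 1.73 CPM per kilobase (SD, n = 10 each). No other member changed its place by more than 1 between the groups.

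Slc7a5 (Entrez ID 20539, chr8:121881150-121907694, minus strand, GRCm38) encodes LAT1, the light chain that takes up leucine and other large neutral amino acids in exchange for glutamine. It had 19.4 to 37.8 CPM in the 10 TG TAC hearts, with a median of 25.6. In TG Sham replicates 1 to 5 it had 41.9, 43.1, 53.3, 31.4 and 31.5 CPM. In NTG TAC hearts it had 9.94 to 30.2 CPM, with a median of 13.3, and in NTG Sham replicates 1 to 5 it had 7.69, 10.2, 9.01, 8.76 and 11.4 CPM. Every TG Sham heart was above every NTG heart of either surgery, and every TG TAC heart was above every NTG Sham heart. The 2 TAC groups overlapped, because NTG TAC replicates 2 and 10, at 30.2 and 23.0 CPM, reached into the range of the TG TAC hearts.

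Slc7a5 averaged 40.2 ± 9.16 CPM in TG Sham and 9.41 ± 1.42 CPM in NTG Sham hearts (SD, n = 5 each). It rose by 2.10 ± 0.25 (95% interval 1.59 to 2.60, edgeR adjusted p 4.52e-06), which is 4.27-fold, and the adjusted p stayed at or below 4.90e-05 when any 1 of the 30 libraries was left out. After TAC it averaged 27.3 ± 5.75 CPM in TG and 15.9 ± 6.40 CPM in NTG hearts (SD, n = 10 each), and was higher in TG hearts by 0.76 ± 0.17 (0.42 to 1.10, edgeR adjusted p 0.00552). All 10 TG TAC hearts were above the NTG TAC mean. TAC in NTG hearts raised it by 0.77 ± 0.22 (0.31 to 1.23, edgeR adjusted p 0.0200), with 10 of 10 NTG TAC hearts above the NTG Sham mean. That call was lost without NTG Sham replicate 1 (edgeR adjusted p 0.0573), with limma voom (0.58, adjusted p 0.0674) and when the NTG libraries were fitted alone (edgeR adjusted p 0.0917).

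In TG hearts the values ran the other way. All 10 TG TAC hearts were below the TG Sham mean of Slc7a5, and the fold change was -0.56 ± 0.19 (95% interval -0.96 to -0.17), with an edgeR adjusted p of 0.148. Limma voom called this fall (-0.63, adjusted p 0.00140), as did edgeR on the TG libraries alone (adjusted p 0.0402). With the sample-name number as a term in the fit the value was -0.30 (edgeR adjusted p 0.664), and surgery and that number overlap in TG hearts in all but 1 library. The difference between the TAC effects of the 2 genotypes was -1.33 ± 0.30 (95% interval -1.94 to -0.73). Its unadjusted p was 0.000103 and its edgeR adjusted p 0.266, while DESeq2 gave -1.32 with an adjusted p of 0.0155. Among libraries with a name number of 100 or more, the 5 TG Sham hearts had 31.4 to 53.3 CPM and the 4 NTG Sham hearts 7.69 to 10.2 CPM. Among those under 100, the 9 TG TAC hearts had a median of 25.5 CPM and the 7 NTG TAC hearts a median of 12.9 CPM.

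**Figure D2:**
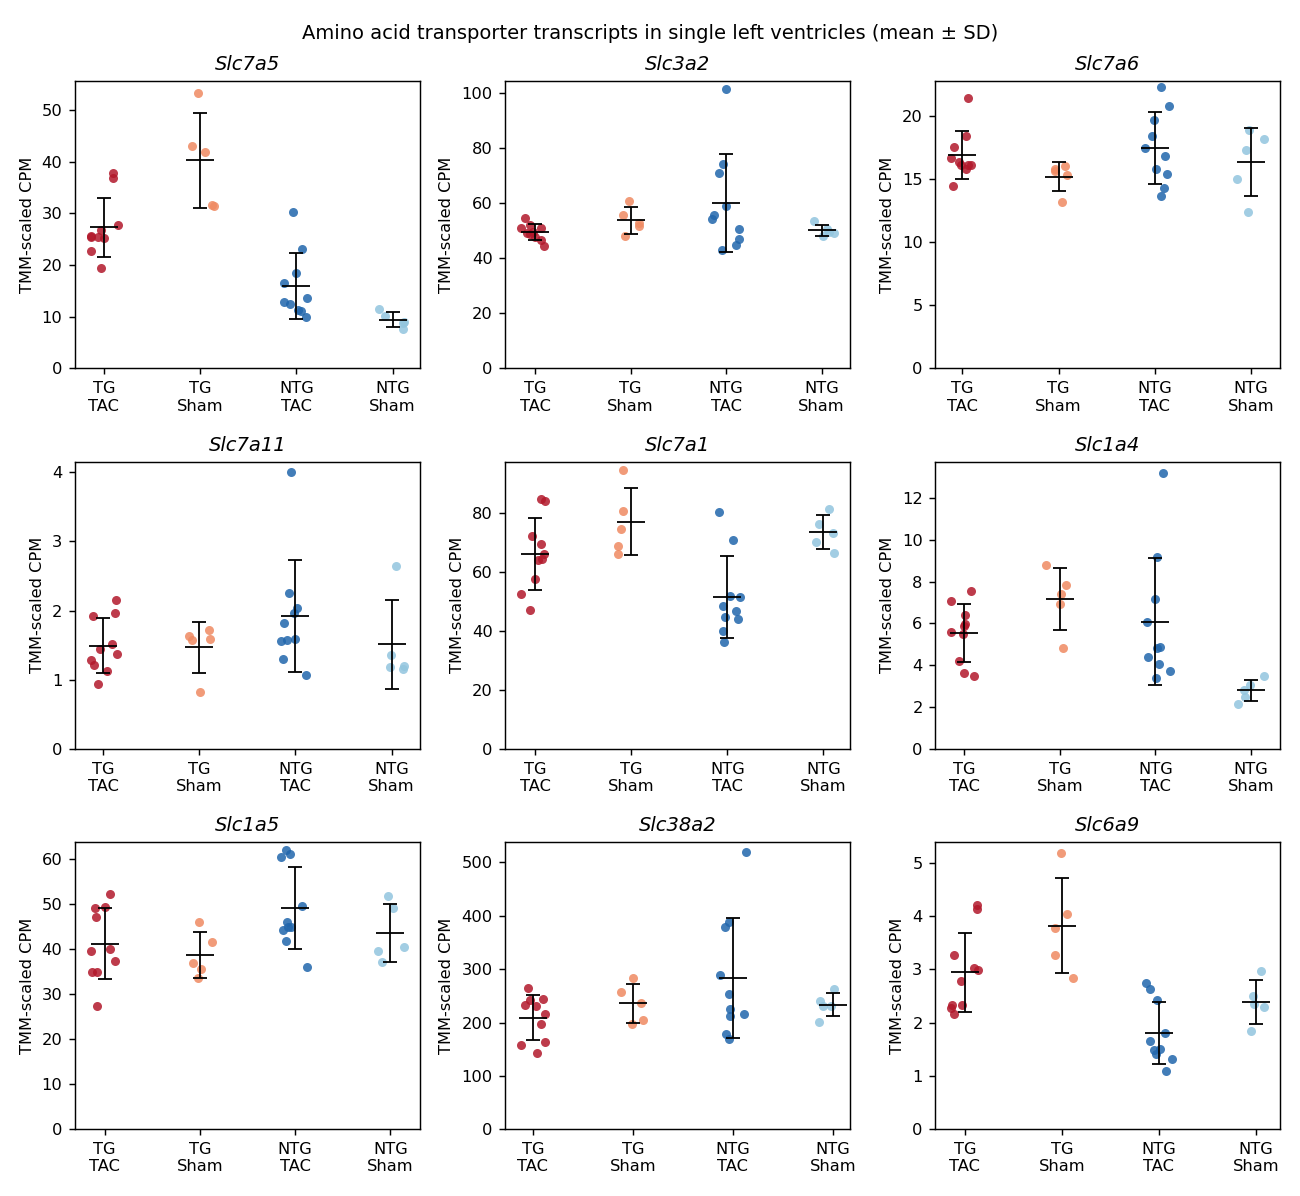
TMM-scaled CPM (vertical axes, from 0) of the 9 tested transporters in every heart, with TG TAC, TG Sham, NTG TAC and NTG Sham from left to right, points for hearts and bars for the mean ± SD. The Slc7a5 points of the 5 TG Sham hearts, at 31.4 to 53.3, lie above all NTG points, and the Slc3a2 points of the 4 groups overlap.

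Slc3a2 (Entrez ID 17254, chr19:8706882-8723369, minus strand) encodes the heavy chain that LAT1 and the other light chains need at the membrane. It had 44.4 to 54.7 CPM in TG TAC hearts (median 49.2) and 60.8, 51.7, 55.9, 47.9 and 52.7 CPM in TG Sham replicates 1 to 5. In NTG TAC hearts it had 43.0 to 101 CPM (median 55.0), and in NTG Sham replicates 1 to 5 it had 49.1, 48.1, 53.5, 49.7 and 50.4 CPM. All 4 groups overlapped, and the 3 highest values came from NTG TAC replicates 2, 10 and 3, at 101, 74.1 and 71.1 CPM. The transgene effect in Sham hearts was 0.10 ± 0.15 (95% interval -0.20 to 0.41), and after TAC it was -0.28 ± 0.10 (-0.50 to -0.07, edgeR adjusted p 0.0749), with 10 of 10 TG TAC hearts below the NTG TAC mean. That second value passed the threshold without NTG TAC replicate 7, 8 or 9 (edgeR adjusted p 0.0321 to 0.0431) and was -0.10 with limma voom. TAC gave -0.12 ± 0.13 in TG hearts and 0.26 ± 0.13 in NTG hearts (edgeR adjusted p 0.723 and 0.158), and the NTG value reached 0.40 (adjusted p 0.0329) with the name number as a term.

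The heavy and light chains therefore stood in different proportions, a description that follows from the Slc7a5 and Slc3a2 values above. Per kilobase, Slc7a5 was 0.524 ± 0.101 of Slc3a2 in TG TAC hearts (SD, n = 10) and 0.710 ± 0.138 in TG Sham hearts (SD, n = 5). In NTG TAC hearts the ratio was 0.251 ± 0.0523 (SD, n = 10), and in NTG Sham hearts it was 0.179 ± 0.0282 (SD, n = 5). The lowest TG ratio of either surgery, 0.416, was above the highest NTG ratio, 0.312. Summed over Slc7a5, Slc7a6, Slc7a7, Slc7a8, Slc7a10 and Slc7a11, the light chains came to 1.03, 1.15, 0.686 and 0.637 times the heavy chain in TG TAC, TG Sham, NTG TAC and NTG Sham hearts. Slc7a5 made up 50.6%, 61.4%, 36.7% and 28.3% of that sum in the same order. These are transcript proportions per kilobase of merged exon, and the amount of each protein was not measured.

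**Figure D3:**
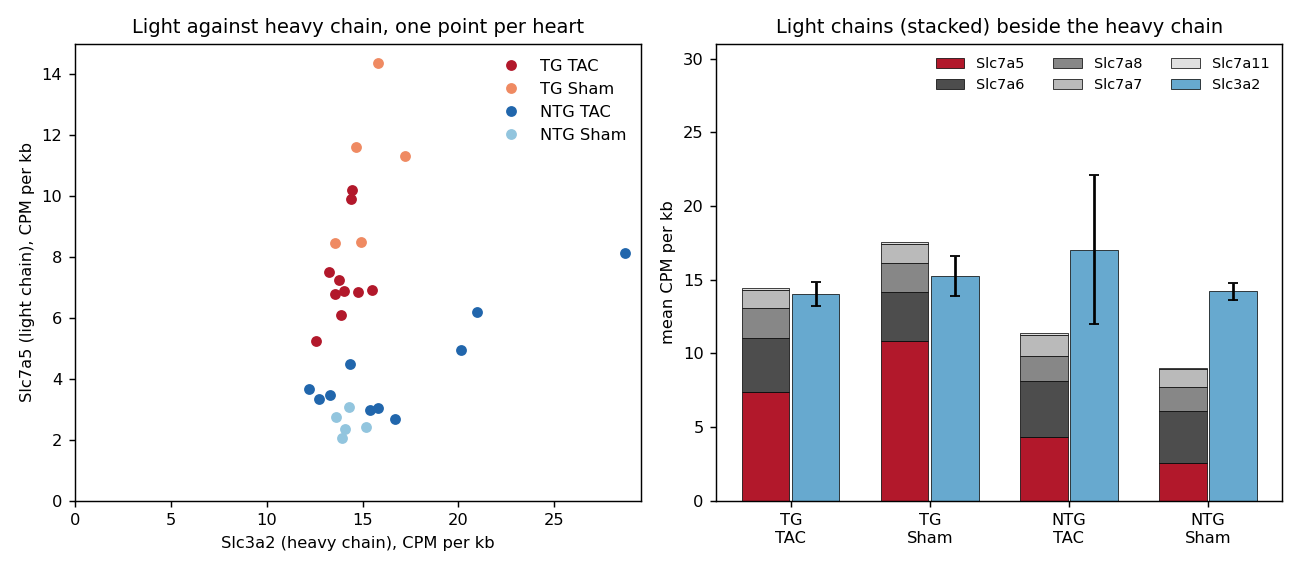
Left, Slc7a5 against Slc3a2, both in CPM per kilobase of exon, with a point for each heart in the colours of the 4 groups. Right, group means of the light chains stacked (Slc7a5, Slc7a6, Slc7a8, Slc7a7 and Slc7a11) beside the heavy chain Slc3a2 in CPM per kilobase, with SD bars on the heavy chain, and Slc7a10, at no more than 0.0968 in any heart, is not drawn; the Slc7a5 share of the stack runs from 28.3% in NTG Sham to 61.4% in TG Sham hearts.

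Slc7a6 (Entrez ID 330836, chr8:106168857-106198706, plus strand) encodes y+LAT2, a light chain that exchanges arginine and other cationic amino acids for neutral ones. It averaged 16.9 ± 1.89 CPM in TG TAC hearts (SD, n = 10) and 15.2 ± 1.14 CPM in TG Sham hearts (SD, n = 5). NTG TAC hearts averaged 17.4 ± 2.83 CPM (SD, n = 10) and NTG Sham hearts 16.4 ± 2.65 CPM (SD, n = 5). Its fold changes in the 4 comparisons lay between -0.11 and 0.15, with edgeR adjusted p of 0.542 or more, and none of their 95% intervals reached beyond -0.35 or 0.37. It was next to Slc7a5 in level per kilobase in NTG Sham hearts and shared neither its transgene nor its TAC call.

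Slc7a11 (Entrez ID 26570, chr3:49892526-50443614, minus strand) encodes xCT, the light chain that imports cystine for glutathione in exchange for glutamate. It had 9 to 56 counts per library. TG TAC hearts averaged 1.49 ± 0.397 CPM (SD, n = 10), TG Sham hearts 1.47 ± 0.366 (SD, n = 5), NTG TAC hearts 1.92 ± 0.810 (SD, n = 10) and NTG Sham hearts 1.51 ± 0.642 CPM (SD, n = 5). All 4 groups overlapped, and the highest value was 3.99 CPM in NTG TAC replicate 10. The transgene effect in Sham hearts was -0.043 ± 0.31 (95% interval -0.68 to 0.59), an interval that takes in changes of 1.5-fold in either direction, so that changes of this size were not detectable at this depth. After TAC it was -0.38 ± 0.21 (-0.81 to 0.05, edgeR adjusted p 0.245).

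Slc7a1 (Entrez ID 11987, chr5:148327410-148399904, minus strand) encodes CAT-1, the main route of arginine and lysine into many cells. It had 47.1 to 84.6 CPM in TG TAC hearts (median 65.2) and 68.8, 74.6, 80.7, 94.4 and 66.1 CPM in TG Sham replicates 1 to 5. It had 36.3 to 80.3 CPM in NTG TAC hearts (median 47.6) and 81.2, 76.4, 70.0 and 66.2 CPM in NTG Sham replicates 1, 2, 4 and 5, with replicate 3 between 70.0 and 76.4. Of the NTG TAC hearts, 8 lay below every NTG Sham heart, and replicates 1 and 7, at 80.3 and 70.9 CPM, lay inside the Sham range. TAC in NTG hearts lowered Slc7a1 by a fold change of -0.51 ± 0.14 (95% interval -0.81 to -0.22, edgeR adjusted p 0.0168), with 9 of 10 hearts below the NTG Sham mean. The call was lost when the NTG libraries were fitted alone (edgeR adjusted p 0.0769) and with the name number as a term (-0.37, adjusted p 0.0904).

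TAC in TG hearts gave -0.22 ± 0.14 for Slc7a1 (95% interval -0.51 to 0.08, edgeR adjusted p 0.515). After TAC the gene was higher in TG than in NTG hearts by 0.36 ± 0.12 (0.12 to 0.61, edgeR adjusted p 0.0475), with 9 of 10 TG TAC hearts above the NTG TAC mean. That call sat at the threshold: it was lost in 23 of the 30 fits that left out 1 library, with adjusted p of up to 0.109. It held without NTG TAC replicate 1 or 7, TG Sham replicate 4 or 5, or TG TAC replicate 2, 7 or 10. It was also lost with no filter on low counts (edgeR adjusted p 0.0734), with limma voom (0.0554) and with the TAC libraries alone (0.102). In Sham hearts the transgene effect was 0.069 ± 0.17 (-0.28 to 0.41), and the difference between the TAC effects of the genotypes was 0.30 ± 0.21 (edgeR adjusted p 0.666).

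Slc7a3 (Entrez ID 11989, chrX:101079210-101086020, minus strand) encodes CAT-3, a related cationic transporter known mainly from brain. It had 0 to 4 counts per library in TG TAC, 1 to 8 in TG Sham, 0 to 5 in NTG TAC and 0 to 4 in NTG Sham hearts. The highest level was 0.750 CPM, in TG Sham replicate 1. With counts this near to 0, no difference between the groups was detectable, and no fold is given.

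Slc1a4 (Entrez ID 55963, chr11:20302180-20332713, minus strand) encodes ASCT1, a sodium-dependent exchanger of alanine, serine, cysteine and threonine. Among the 9 tested members, it was the only one besides Slc7a5 that rose both with the transgene in Sham hearts and with TAC in NTG hearts. It had 3.49 to 7.56 CPM in TG TAC hearts (median 5.74) and 8.81, 7.39, 6.91, 4.82 and 7.86 CPM in TG Sham replicates 1 to 5. It had 3.37 to 13.2 CPM in NTG TAC hearts (median 4.85) and 3.49, 2.49, 3.04, 2.81 and 2.14 CPM in NTG Sham replicates 1 to 5. The 2 Sham groups did not overlap, the 2 TAC groups overlapped throughout, and NTG TAC replicates 10 and 2, at 13.2 and 9.19 CPM, were the highest of all 30 hearts.

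Slc1a4 rose with the transgene in Sham hearts by 1.35 ± 0.30 (95% interval 0.73 to 1.97, edgeR adjusted p 0.0194), which is 2.55-fold. The call was lost without NTG Sham replicate 2, 4 or 5 or TG Sham replicate 1 or 2 (edgeR adjusted p 0.0517 to 0.0777), with the counts per library only 21 to 94 in these 2 groups. TAC in NTG hearts raised it by 1.14 ± 0.27 (0.58 to 1.70, edgeR adjusted p 0.00721), with 10 of 10 hearts above the NTG Sham mean, and the call was lost when only NTG libraries were fitted (adjusted p 0.0663). After TAC the genotypes gave -0.16 ± 0.20 (-0.56 to 0.25, edgeR adjusted p 0.653), a value that turned to 0.11 with limma voom and to 0.046 without NTG TAC replicate 10. TAC in TG hearts gave -0.37 ± 0.24 (-0.86 to 0.12, edgeR adjusted p 0.502). The difference between the TAC effects of the genotypes was -1.51 ± 0.36, with an unadjusted p of 0.000235 and an edgeR adjusted p of 0.266.

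Promoter sequence was read for the members from RefSeq windows (GRCm38.p6) of 250 bases before to 50 bases after each annotated start. The table held 11 windows of 7 members, and Slc7a5, Slc7a3 and Slc1a5 had no window there. Of 2 motifs searched on both strands, the first was TGATGNAA, the core of the C/EBP-ATF response element through which ATF4 is known to act, including at mouse Slc7a11. It was found in 2 of the 11 windows, against 3.97% of all 32851 windows and 2.25% of those of tested genes, in Slc7a11 and Slc1a4. Slc7a11 held matches beginning 66 and 47 bases before the start, and Slc1a4 held 1 beginning 4 bases before it. The second, TGACNNNGC, the core of the antioxidant response element that NRF2 is known to bind, was found in 6 of the 11 windows, of Slc6a9, Slc7a1, Slc7a6 and Slc38a2, against 12.4% of all windows and 14.4% of those of tested genes. The Slc7a6 windows overlap and hold the same TGACGTGGC, 1 base before one annotated start and 68 bases before the other, so this site was counted in each. The lines below give 150 bases before to 10 bases after the start, 5′ to 3′ on the minus strand, with matches to the first motif on either strand in capitals. Slc1a4 and Slc7a11 are shown because they hold that motif, and Slc3a2 because it is the LAT1 heavy chain and its window holds none. The Slc3a2 window lies at a start inside the gene span given above, and sequence at the outer end of that span was not read.
Slc1a4, chr11:20332704-20332863: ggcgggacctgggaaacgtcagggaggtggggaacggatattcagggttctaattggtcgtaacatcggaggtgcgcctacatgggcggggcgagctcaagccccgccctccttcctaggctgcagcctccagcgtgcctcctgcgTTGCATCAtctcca
Slc7a11, chr3:50443604-50443763: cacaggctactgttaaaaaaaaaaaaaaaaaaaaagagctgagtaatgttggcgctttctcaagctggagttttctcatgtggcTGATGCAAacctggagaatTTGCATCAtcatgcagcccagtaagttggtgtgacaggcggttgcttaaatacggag
Slc3a2, chr19:8713888-8714047: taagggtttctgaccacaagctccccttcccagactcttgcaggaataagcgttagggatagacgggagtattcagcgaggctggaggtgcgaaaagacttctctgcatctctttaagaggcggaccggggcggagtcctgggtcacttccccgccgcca
A match is a description of the letters, not of binding. All 3 matches read TGATGCAA on one of the strands. Slc1a4 rose with the transgene in Sham hearts. In the same comparison Slc7a11 was at -0.043 ± 0.31 (95% interval -0.68 to 0.59), with at most 26 counts per library. The part of the motif in these values was not tested.

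Slc1a5 (Entrez ID 20514, chr7:16781340-16798274, plus strand) encodes ASCT2, an exchanger that brings in glutamine and is known as a partner of LAT1, for which glutamine is an exchange substrate. It averaged 41.3 ± 7.97 CPM in TG TAC hearts (SD, n = 10) and 38.8 ± 5.09 CPM in TG Sham hearts (SD, n = 5). NTG TAC hearts averaged 49.2 ± 9.04 CPM (SD, n = 10) and NTG Sham hearts 43.6 ± 6.45 CPM (SD, n = 5). The 4 groups overlapped, and the transgene effect was -0.17 ± 0.15 in Sham hearts (95% interval -0.48 to 0.14) and -0.25 ± 0.11 after TAC (-0.47 to -0.03, edgeR adjusted p 0.120). With the replicate number as a block the second value had an adjusted p of 0.0471. TAC gave 0.091 ± 0.13 in TG and 0.17 ± 0.13 in NTG hearts, with edgeR adjusted p of 0.812 and 0.382.

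Slc38a2 (Entrez ID 67760, chr15:96687392-96699730, minus strand) encodes SNAT2, which accumulates small neutral amino acids, glutamine among them, with sodium, and is known to be induced when cells are starved of amino acids. It had 144 to 265 CPM in TG TAC hearts (median 224) and 284, 257, 236, 204 and 197 CPM in TG Sham replicates 1 to 5. It had 170 to 519 CPM in NTG TAC hearts (median 239) and 241, 263, 232, 201 and 231 CPM in NTG Sham replicates 1 to 5. The groups overlapped, and the highest hearts were NTG TAC replicates 2, 3 and 10, at 519, 388 and 378 CPM. The transgene effect in Sham hearts was 0.015 ± 0.23 (95% interval -0.46 to 0.49). After TAC it was -0.43 ± 0.16 (-0.77 to -0.10, edgeR adjusted p 0.0814), with 10 of 10 TG TAC hearts below the NTG TAC mean. DESeq2 called that difference (-0.44, adjusted p 0.0436), as did edgeR without NTG TAC replicate 6 or 9, while limma voom gave -0.21 (adjusted p 0.426).

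Slc6a9 (Entrez ID 14664, chr4:117834506-117875198, plus strand) encodes GlyT1, a sodium- and chloride-driven glycine transporter. It had 2.16 to 4.21 CPM in TG TAC hearts (median 2.88) and 4.03, 3.78, 5.19, 3.27 and 2.83 CPM in TG Sham replicates 1 to 5. It had 1.09 to 2.74 CPM in NTG TAC hearts (median 1.58) and 2.50, 2.97, 2.30, 1.84 and 2.34 CPM in NTG Sham replicates 1 to 5. The TG values lay mostly above the NTG values at both surgeries, with some overlap in each pair of groups. After TAC it was higher in TG than in NTG hearts by 0.70 ± 0.17 (95% interval 0.35 to 1.04, edgeR adjusted p 0.0106), and 10 of 10 TG TAC hearts were above the NTG TAC mean. In Sham hearts the transgene effect was 0.67 ± 0.23 (0.20 to 1.15), with 5 of 5 TG Sham hearts above the NTG Sham mean and an edgeR adjusted p of 0.316. TAC gave -0.37 ± 0.19 in TG hearts (-0.77 to 0.018, edgeR adjusted p 0.370) and -0.40 ± 0.21 in NTG hearts (-0.83 to 0.032, edgeR adjusted p 0.189), and limma voom called the TG value (-0.44, adjusted p 0.0491). The interaction was 0.024 ± 0.28 (-0.54 to 0.59).

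Slc6a9 values carry an uncertainty of counting. Its exons overlap those of B4galt2 and Ccdc24 on the opposite strand, and the strand setting of the counting is not given in the sources used here. B4galt2 averaged 11.3 ± 1.34 CPM in TG TAC and 11.4 ± 2.32 CPM in NTG TAC hearts (SD, n = 10 each), a fold change of -0.011 ± 0.094 (edgeR adjusted p 0.956). In Sham hearts it averaged 11.2 ± 1.23 CPM in TG and 9.96 ± 1.17 CPM in NTG hearts (SD, n = 5 each). Ccdc24 averaged under 0.2 CPM in each group. The other 9 members had no exon overlap with another annotated gene.

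The coefficient of variation within a group was highest in NTG TAC hearts for 6 of the 10 members, and Slc1a5, Slc7a11, Slc7a6 and Slc7a3 had their highest in another group. That of Slc7a5 was 21.1% in TG TAC, 22.8% in TG Sham, 40.2% in NTG TAC and 15.1% in NTG Sham hearts. That of Slc3a2 was 5.85%, 9.01%, 29.6% and 4.10% in the same order, and that of Slc38a2 19.9%, 15.4%, 39.7% and 9.45%. For Slc1a5 it was 19.3%, 13.1%, 18.4% and 14.8%. NTG TAC replicates 2, 3 and 10 were the 3 highest hearts of their group for Slc7a5, Slc3a2, Slc38a2, Slc1a4 and Slc7a6. They were also the 3 highest for Nppa, which encodes atrial natriuretic peptide and is known to rise under load, at 9462, 9009 and 8269 CPM. Nppa split the NTG TAC hearts into 5 at 386 to 1610 CPM and 5 at 5666 to 9462 CPM, so no correlation is given over them. Replicate 10 also had the highest summed fibroblast and macrophage markers of its group, at 2427 and 385 CPM. Replicate 2, the highest heart of the group for Slc7a5, Slc3a2 and Slc38a2, had its highest summed erythroid markers, at 3343 CPM against a group median of 1387 CPM, and the part of these in the transporter levels was not tested.

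Slc7a1 did not follow this order in NTG TAC hearts. Its highest hearts were replicates 1 and 7, which had the lowest and second lowest Nppa of the group, and its lowest was replicate 10. In TG TAC hearts the order of Slc7a5 was also unlike that of Nppa. Slc7a5 was highest in replicates 2 and 1, at 37.8 and 36.8 CPM, and replicate 1 had the lowest Nppa of the TG TAC hearts, at 87.8 CPM. In TG Sham hearts, Nppa was at 48.8 to 177 CPM, below its 239 to 461 CPM in NTG Sham hearts, while Slc7a5 was at its highest, as the plot of transporter levels beside Nppa shows. Slc3a2 and Slc38a2 showed their high values in NTG TAC hearts alone among the 4 groups, with no TG heart above 60.8 CPM of Slc3a2 or 284 CPM of Slc38a2.

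**Figure D4:**
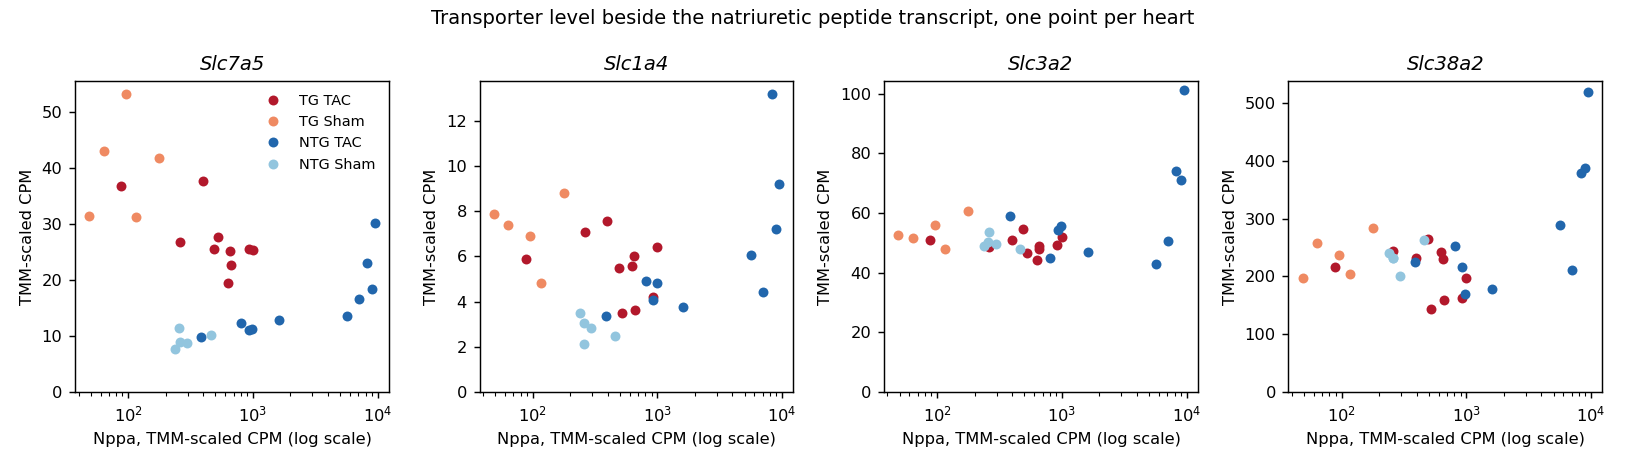
TMM-scaled CPM of Slc7a5, Slc1a4, Slc3a2 and Slc38a2 (vertical axes, from 0) against Nppa (horizontal axis, log scale) with a point for each heart in the colours of the 4 groups. The NTG TAC hearts with the 3 highest Nppa levels, from 8269 CPM up, are the 3 highest of their group in each panel, and the TG Sham hearts combine Nppa of 48.8 to 177 CPM with the highest Slc7a5.

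The tested genes whose levels were most like Slc7a5 over the 30 libraries were Sars, Aldh18a1, Mthfd2, Aars, Yars and Asns. Their Pearson correlations of log2 CPM with it were 0.955, 0.952, 0.948, 0.943, 0.921 and 0.920, over libraries that share the same 4 groups. Sars, Aars and Yars encode tRNA synthetases for serine, alanine and tyrosine, Aldh18a1 a proline synthesis enzyme, Mthfd2 a mitochondrial folate enzyme and Asns asparagine synthetase. Among the members, Slc1a4 was at 0.69 and Slc6a9 at 0.68, and the heavy chain Slc3a2 was at 0.20. After the group means were subtracted, the most alike genes were Copg1, Aldh18a1, Sec24d, Tmem88b, Sars and Plcxd2, at 0.846 to 0.802. On that scale Slc3a2 was at 0.67, Slc38a2 at 0.64, Slc1a4 at 0.60, Slc6a9 at 0.57, Slc7a11 at 0.50, Slc7a6 at 0.46, Slc1a5 at 0.054 and Slc7a1 at -0.33.

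Other amino acid transporters, of the plasma membrane apart from the vesicular Slc6a17, were followed as a list of 32, of which 18 were tested. With the transgene in Sham hearts 1 of the 18 rose and 1 fell, where 0.596% of all genes were called higher and 0.132% lower. Slc38a1, which encodes the glutamine transporter SNAT1, rose by 0.77 ± 0.17 (edgeR adjusted p 0.0196), a call lost without NTG Sham replicate 3 or 4 or TG Sham replicate 1 (adjusted p 0.0830 to 0.0967). Slc43a2, which encodes LAT4, a facilitator of leucine and other neutral amino acids, fell by 0.52 on the log2 scale (SE 0.12, edgeR adjusted p 0.0210). That call was lost without NTG Sham replicate 1, 2 or 5 or TG Sham replicate 2 or 5 (adjusted p 0.0647 to 0.0984) and with the replicate number as a block (0.0590). Slc7a5 and Slc43a2, both carriers of large neutral amino acids, thus had fold changes of opposite sign, and Slc43a2 averaged 20.4 ± 3.19 CPM in TG Sham and 29.2 ± 4.49 CPM in NTG Sham hearts (SD, n = 5 each).

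TAC in NTG hearts raised 6 of the 18 and lowered 3, in a comparison where 9.46% of all genes were called higher and 8.13% lower. The glutamate transporters Slc1a3 and Slc1a2 rose by 1.77 ± 0.48 and 1.43 ± 0.39, the cationic transporter Slc7a2 by 0.91 ± 0.24, and the taurine transporter Slc6a6 by 0.53 ± 0.11 (edgeR adjusted p 0.0140, 0.0133, 0.0117 and 0.00314). Slc43a2 rose by 0.38 ± 0.10 (edgeR adjusted p 0.0113), and Slc6a17, a vesicular neutral amino acid transporter, had a fold change of -0.98 ± 0.25 (edgeR adjusted p 0.0107). Slc38a1 rose too, by 0.44 ± 0.15 (edgeR adjusted p 0.0449), a call lost in 11 of the 30 fits that left out 1 library. It was also lost with no filter (0.0578), with limma voom (0.34, adjusted p 0.0913) and with the NTG libraries alone (edgeR adjusted p 0.153). With the NTG libraries fitted alone, Slc6a6 kept its call, and Slc1a3, Slc1a2, Slc7a2, Slc43a2 and Slc6a17 had edgeR adjusted p of 0.105, 0.0818, 0.0794, 0.0508 and 0.0705. The cationic transporters Slc7a1 and Slc7a2 had fold changes of opposite sign in NTG hearts. With the name number as a term, the NTG calls of Slc7a2, Slc43a2 and Slc6a17 were lost too, at 0.70, 0.30 and -0.75 (edgeR adjusted p 0.0640, 0.0543 and 0.0557). Limma voom gave Slc1a2 a larger rise, of 2.10 (adjusted p 0.00489). Slc1a2 had only 0 to 9 counts per library in NTG Sham and 6 to 23 in NTG TAC hearts, so both sizes are uncertain. In TG hearts TAC raised 1 of the 18, where 1.43% of all genes were called. It was Slc43a2, by 0.69 ± 0.10 (edgeR adjusted p 0.000920), a call lost with the name number as a term (0.0762).

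Between TG TAC and NTG TAC hearts 2 of the 18 were higher and 2 lower, where 4.57% of all genes were called higher and 6.86% lower. Slc6a6 was lower by a fold change of -0.43 ± 0.088 (edgeR adjusted p 0.00266), at 205 ± 28.6 CPM in TG TAC and 277 ± 48.5 CPM in NTG TAC hearts (SD, n = 10 each). Slc1a3 was lower by -1.32 ± 0.36 (edgeR adjusted p 0.0184), and without NTG TAC replicate 10 it was at -0.91 (adjusted p 0.0572). That call was also lost with limma voom, at -0.75 (adjusted p 0.145), and with the TAC libraries fitted alone (edgeR adjusted p 0.0610). Slc6a17 was higher by 0.76 ± 0.21 (edgeR adjusted p 0.0217, 0.0554 without TG TAC replicate 1 and 0.0540 with the TAC libraries alone). Slc38a1 was higher by 0.38 ± 0.12 (edgeR adjusted p 0.0368), a call lost without any of NTG TAC replicates 4 to 8 or TG TAC replicates 1, 2, 3, 9 and 10.

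Transporters of lysosomes and of mitochondria formed 2 lists. Of 9 lysosomal amino acid transporters 8 were tested, and 0 were called by edgeR in any of the 5 comparisons, with 0 at an unadjusted p under 0.05 and 0 called by DESeq2 or limma voom. Of 12 mitochondrial amino acid carriers 10 were tested, and edgeR called 2, both higher in TG TAC than in NTG TAC hearts, where 4.57% of all genes were called higher. In the other 4 comparisons edgeR called 0 of the 10, with 5 at an unadjusted p under 0.05 for NTG TAC against NTG Sham, 2 for TG TAC against TG Sham and 0 in the rest. For NTG TAC against NTG Sham hearts DESeq2 and limma voom each called 1, where they called 2680 and 2106 of all genes. Limma voom also called 1 for TG TAC against TG Sham hearts, where it called 1305 of all genes. The 2 edgeR calls were the aspartate-glutamate carrier Slc25a12 and the glycine carrier Slc25a38. They were higher in TG TAC than in NTG TAC hearts by 0.25 ± 0.072 and 0.24 ± 0.073 (edgeR adjusted p 0.0229 and 0.0332). The Slc25a12 call was lost when replicate 2 or 3 of the NTG TAC group or replicate 1 of the TG TAC group was left out, and the Slc25a38 call when replicate 2, 3, 5 or 10 of the NTG TAC group or 1, 2, 5, 8 or 10 of the TG TAC group was. With the TAC libraries fitted alone both were lost (edgeR adjusted p 0.0740 and 0.0863), and Slc25a38 also with limma voom (0.0990) and with the name number as a term (0.0511).

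Among 15 genes of amino acid sensing by mTORC1, Lars, the leucyl-tRNA synthetase, rose with the transgene in Sham hearts by 0.25 ± 0.058 (edgeR adjusted p 0.0297), a call lost without NTG Sham replicate 1, 4 or 5, TG Sham replicate 1, 2, 3 or 4, or TG TAC replicate 6, 9 or 10, with no filter (0.0684) and with the replicate block (0.0590). Lars was 1 of 15 tested there, against 0.596% of all genes called higher. Flcn, which acts on the Rag GTPases, was higher in TG TAC than in NTG TAC hearts by 0.31 ± 0.081 (edgeR adjusted p 0.0142). It fell with TAC in NTG hearts (-0.31 ± 0.098, edgeR adjusted p 0.0269). The second call was lost without NTG Sham replicate 1, 2 or 4, and with the NTG libraries alone (0.114). It was also lost with the replicate block (0.0731) and with the name number as a term (0.152). Flcn was 1 of 15 tested each time, where 4.57% of all genes were called higher in the first comparison and 8.13% lower in the second. Of 10 genes for ATF4 and its partners or targets, 4 rose with the transgene in Sham hearts, where 0.596% of all genes were called higher. They were Chac1 by 2.13 ± 0.38, Atf5 by 1.75 ± 0.20, Trib3 by 1.19 ± 0.20 and Atf4 itself by 0.73 ± 0.17 (edgeR adjusted p 0.00200, 4.13e-06, 0.000844 and 0.0242). The Atf4 call was lost without NTG Sham replicate 1, 3, 4 or 5 or TG Sham replicate 1, 2 or 3, and the Chac1 call when the Sham libraries were fitted alone (adjusted p 0.139). Without TG Sham replicate 1, at 45.8 CPM against a group median of 12.7 CPM, the Chac1 value was 1.48 (edgeR adjusted p 0.00629). Atf5 had the same order of groups as Slc7a5, at 149 ± 46.1 CPM in TG TAC (SD, n = 10), 279 ± 80.5 CPM in TG Sham (SD, n = 5), 93.98 ± 16.5 CPM in NTG TAC (SD, n = 10) and 82.9 ± 6.15 CPM in NTG Sham hearts (SD, n = 5). Atf5 fell with TAC in TG hearts, with a fold change of -0.91 ± 0.17 (edgeR adjusted p 0.00365), or -0.56 (adjusted p 0.223) with the name number as a term. It was 1 of 10 called there, where 1.43% of all genes were called. In NTG hearts TAC raised 2 of the 10, where 9.46% of all genes were called higher. They were Nupr1 by 1.57 ± 0.42 and Cebpb by 0.87 ± 0.30 (edgeR adjusted p 0.0131 and 0.0415). Both calls were lost with limma voom (0.0546 and 0.140) and with the NTG libraries alone (0.105 and 0.102). The Cebpb call was also lost when replicate 1, 2 or 5 of the NTG Sham group or 2, 3 or 10 of the NTG TAC group was left out, with no filter (0.0597) and with the replicate block (0.0542). Between TG TAC and NTG TAC hearts 1 of the 10 was higher and 1 lower, where 4.57% of all genes were called higher and 6.86% lower. After TAC, Atf5 was higher in TG than in NTG hearts by 0.66 ± 0.14 and Nupr1 lower by -1.18 ± 0.32 (edgeR adjusted p 0.00471 and 0.0184). The Nupr1 call was lost without NTG TAC replicate 2 (0.0504). It was also lost with limma voom, at -0.57 (adjusted p 0.215), with the TAC libraries alone (edgeR adjusted p 0.0619) and with the replicate block, at -0.98 (0.0608).

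Glutathione and NRF2 target genes, followed beside the cystine importer Slc7a11, numbered 8, and all were tested. None was called for the transgene in Sham hearts or after TAC by edgeR, with 1 at an unadjusted p under 0.05 in each comparison. DESeq2 called 0 in Sham hearts and 1 after TAC, where it called 1860 of all genes, and limma voom called 0 in both. TAC in NTG hearts raised 3, where 9.46% of all genes were called higher, Hmox1 by 0.96 ± 0.31, Nqo1 by 0.46 ± 0.069 and Srxn1 by 0.34 ± 0.10 (edgeR adjusted p 0.0355, 0.000543 and 0.0241). TAC in TG hearts raised 1 of the 8, where 1.43% of all genes were called, Nqo1 by 0.43 ± 0.069 (edgeR adjusted p 0.00118). The Nqo1 call in TG hearts was lost with the name number as a term (0.0661). The Hmox1 call in NTG hearts was lost when replicate 1, 2, 4 or 5 of the NTG Sham group or 2 or 10 of the NTG TAC group was left out, and the Srxn1 call without NTG Sham replicate 1, 3 or 4. Hmox1 was also lost with no filter (0.0526), limma voom (0.0629), the NTG libraries alone (0.130), the replicate block (0.0568) and the name number as a term (0.106), and Srxn1 with the NTG libraries alone (0.116). Slc7a11 itself was at 0.024 ± 0.27 in TG and 0.36 ± 0.27 in NTG hearts after TAC (edgeR adjusted p 0.978 and 0.365).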

How the data were processed

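Per the labels, RNA of 30 left ventricles was made into strand-specific mRNA libraries from 1.3 ug of total RNA each and read as paired 100-base reads. The submitters' processing notes name Trim Galore 0.6.4, TopHat, Bowtie2 2.2.9, edgeR 3.17 and mm10, and the counting program and its strand setting are not given in the sources used here. The authors deposited raw counts per gene for each library. They also deposited CPM, which were checked against the counts and library totals, matched them, and were not used further. Symbols came from RefSeq for 24437 of 24467 Entrez IDs. The deposited counts were analysed with edgeR 4.0.16 in R 4.3.3: filterByExpr (minimum count 10), TMM factors, and 1 robust quasi-likelihood model of the 4 groups over all 30 libraries, so that each gene has 1 spread over 26 residual degrees of freedom. F tests were two-sided. Levels per kilobase used the merged exons of all GENCODE vM21 transcripts of a gene, and log2 CPM for correlations had a prior count of 2. The count model was tested on simulated data. Earlier results of these data were known when the members, the other lists and the naming rule were chosen. The rule named every member and, of each other list, up to 6 called genes with the smallest p in a comparison; B4galt2, Ccdc24 and Nppa were outside it and added after values were seen. Alternatives were DESeq2 1.42.0, limma 3.58.1 voom with sample quality weights, RLE factors, no filter, a strict filter (1 CPM in 5 libraries), fits of the compared groups alone, a replicate block, the name number (under 100, or 100 and more) as a term, and leaving out each library. Within groups, 110 pairs of libraries differed beyond counting error.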

Additional observations from a re-analysis of the deposited data

Results flagged for a closer look

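In 36 groups of hearts checked, for 9 transporters in 4 groups each, 5 had a heart far from the others. Chance gives such a heart in about 1 of 20 groups where values are normally distributed, which was not checked for these CPM. Slc3a2 was at 101 CPM in NTG TAC replicate 2, with the next heart of the group at 74.1 CPM. That gap was 0.467 of the group's range, against a limit of 0.466. Slc7a11, with only 9 to 56 counts per library, was at 3.99 CPM in NTG TAC replicate 10, with the next at 2.25. In TG Sham replicate 4 it was at 0.818 CPM, with the next lowest at 1.57. It was at 2.65 CPM in NTG Sham replicate 5, with the next at 1.36 CPM, in a library whose lymphocyte markers summed to 63.4 CPM while those of each other library summed to under 10 CPM. The part of those cells in the Slc7a11 value was not tested. Slc7a6 was at 13.2 CPM in TG Sham replicate 5, with the next lowest at 15.3 CPM.

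The TAC effect on Slc7a5 differed between TG and NTG hearts by -1.33 on the log2 scale: all 10 TG TAC hearts lay below the TG Sham mean and all 10 NTG TAC hearts above the NTG Sham mean. The interaction had an unadjusted p of 0.000103, and its edgeR adjusted p over all genes, 0.266, missed the threshold.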

How the results depend on the processing

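Of the values for named genes, 537 of 607 under the other settings, and 2175 of 2310 with 1 library left out, kept their direction and their side of the threshold. Members called, from the edgeR fits, ranged over the fits without 1 library from 1 to 2 for TG Sham against NTG Sham, 2 to 4 for TG TAC against NTG TAC, 2 to 3 for NTG TAC against NTG Sham, and 0 to 0 for TG TAC against TG Sham and for the interaction. Fits of the compared groups alone called 1 member for TG TAC against TG Sham and 0 for NTG TAC against NTG Sham. Limma voom called 2 for TG TAC against TG Sham, where it called 1305 of all genes. DESeq2 called 1 in the interaction, where it called 5 of all genes. The replicate numbers did not pair the samples (median correlation of deviations 0.047 over 35 same-number pairs, lowest -0.15, and 6 of 20 libraries most alike with their own number). With the replicate number as a block the counts were 2, 4, 0, 3 and 0 for TG Sham against NTG Sham, TG TAC against NTG TAC, TG TAC against TG Sham, NTG TAC against NTG Sham and the interaction, and Slc7a11 turned to -0.023 for TG TAC against TG Sham. Values that changed sign were all uncalled. With voom, Slc7a11 was 0.077 in Sham hearts, and Slc7a6 0.0014 and Slc1a4 0.11 for TG TAC against NTG TAC. With the name number as a term, Slc7a11 was 0.072 and Slc38a2 -0.068 for TG Sham against NTG Sham, and Slc3a2 was 0.17, Slc7a11 -0.35, Slc7a1 0.035 and Slc38a2 0.17 for TG TAC against TG Sham. Leaving out 1 library, TG Sham against NTG Sham ranged from -0.13 to 0.26 for Slc7a11, -0.017 to 0.12 for Slc7a1 and -0.061 to 0.070 for Slc38a2. Slc1a4 ranged from -0.23 to 0.046 for TG TAC against NTG TAC, and Slc7a11 from -0.13 to 0.089 for TG TAC against TG Sham. In the interaction Slc7a6 ranged from -0.0088 to 0.14 and Slc6a9 from -0.071 to 0.16. The cause of these changes was not tested. Depth limits Slc7a11 and Slc6a9, with at most 56 and 57 counts in any library, and Slc1a4, with as few as 21. Outside the members it limits Slc1a2, with at most 23 counts in any library. It leaves Slc7a3 untested.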
